A study of Mus musculus with 14 samples.

Results

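The kinesin motor genes of the mouse hippocampus were examined in 14 RNA-seq libraries. Members were taken by symbol, as every Kif gene and every Kifc gene named in the comparison tables that the authors deposited. This gave 40 genes of the 55450 genes in the annotation. Of the 40, 38 had an assembled transcript in at least 1 library and 33 had one in all 14 libraries. No transcript was assembled for Kif12 or Kif2b. The members were sorted by known role into 17 transport kinesins, 13 mitotic kinesins, 6 cilium kinesins and 4 others.

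All mice were C57BL6 and were labelled 30-day old, and the tissue was hippocampus. The 3 vehicle wild types were KMT2D+/+ and received methylcellulose alone by gavage. The 3 vehicle mutants were KMT2D+/bGeo, carrying 1 trapped copy of the gene for the histone methyltransferase KMT2D, and received the same vehicle. The 5 TAK-418 wild types and the 3 TAK-418 mutants received 1 mg/kg/day of TAK-418, which inhibits LSD1, a histone demethylase encoded by Kdm1a. The series text gives 3 to 4 animals in each group, fewer than the 5 libraries labelled as TAK-418 wild types. These were taken as 5 mice, and tests that use them rest on that. Dosing started at 2 weeks of age and lasted 2 weeks. Each library has a title number of its own, and no label says how the libraries relate to litters or days. The labels name 2 library kits, NEBNext Ultra and NEBNext Ultra II, without saying which library was made with which, so kit and group cannot be told apart.

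Kinesins are motor proteins that use ATP to move along microtubules, or in some families to take microtubules apart. In neurons, kinesins of the transport families carry vesicles, mitochondria and RNA granules from the cell body into axons and dendrites, where each family binds its own cargo through adaptors. Mitotic kinesins build the spindle, move chromosomes and finish cell division, and are made mainly by dividing cells, which in the young hippocampus include the progenitors of the dentate gyrus. A further set works in cilia, either as regulators of Hedgehog signalling and cilium length or in the motile cilia of ependymal cells.

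Values are the abundances of assembled transcripts summed per gene and scaled between libraries, called scaled abundance here. They are given per length, but whether the abundances of several transcripts of 1 gene add up is not given in the sources used here, so levels of genes assembled as several forms or in part are uncertain. A value of 0 means that no transcript was assembled, not that the gene was silent. Relative depth, in M fragments as worked out from the abundance that 1 fragment is worth, lay between 35.09 and 59.97 M, except that TAK-418 wild type 1 was far deeper at 168 M. All 9 markers of hippocampal neurons were present in every library, and their sum was 371 to 477. The summed choroid plexus markers were 7269 in vehicle wild type 3 and 5875 in vehicle mutant 1, against 85.7 to 1107 in the other 12 libraries. Some results are therefore also given without these 2 libraries. They are the kinesins called, some counts by list or at an unadjusted p, and the differences of Kif1a, Kifc3 and Kif2c. Differences of other single genes and the exon comparisons are given only with the 2 libraries. Results without them are not free of choroid plexus signal, because vehicle mutant 3 was at 1107 and TAK-418 mutant 1 at 735. The rest were at 85.7 to 148. Kmt2d was at 13.8 to 14.2 in vehicle wild types, 10.6 to 14.4 in vehicle mutants, 12.5 to 18.0 in TAK-418 wild types and 9.34 to 14.6 in TAK-418 mutants. These ranges overlap, and where the trap lies relative to the assembled transcripts is not given in the sources used here, so Kmt2d does not check the genotype labels. Kdm1a was at 29.9 to 35.8 over all libraries. In bulk tissue, fewer cells of a type and less RNA per cell cannot be told apart.

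The transport kinesins made up nearly all kinesin RNA. Their sum was 1183 to 1513 with a median of 1391 over the 14 libraries, which was 94.0% to 96.5% of the sum of all kinesins. The mitotic kinesins summed to 11.3 to 22.1 with a median of 18.5, or 0.791% to 1.61% of the total. The cilium kinesins summed to 7.84 to 17.2 with a median of 12.6. The ratio of transport to mitotic kinesins was 58.4 to 122 with a median of 73.1. The median ratio was 125 with only the highest transcript of each gene and 387 with abundance multiplied by transcript length, so its size depends on how transcripts are summed. In the authors' deposited tables, where 1 FPKM value stands for each group, the ratio was 116 to 134. It leaves out the 3 loci of Kif3b, Kif17 and Kif15, which are joined to other genes, and keeps loci joined only to a microRNA. The ratio of the assembled transcripts was not recomputed on these members, so the 2 ratios are not alike. Kif22 was at 3.68 to 4.56 FPKM in a deposited mitotic sum of 7.96 to 8.94, against a mean of 0.704 in an assembled mean sum of 18.1.

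**Figure D1:**
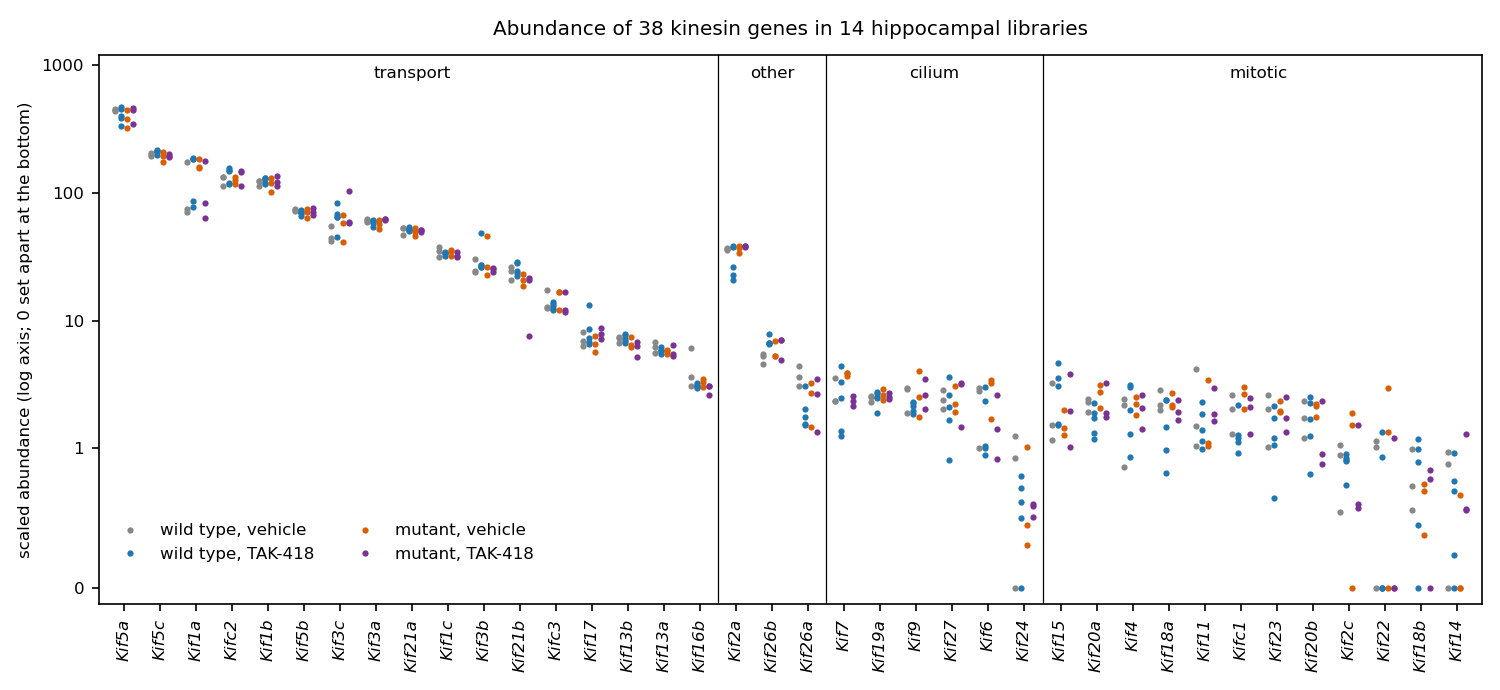
Scaled abundance (log axis, with 0 set apart at the bottom) of the 38 kinesin genes with an assembled transcript, where each point is 1 library and colours mark the 4 groups. Kif5a lies at 326 or more in every library, while every mitotic kinesin lies under 5.

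Kinesin-1 was the most abundant family. It is the founding transport motor, a pair of heavy chains that carry mitochondria and vesicles, and Kif5a, Kif5b and Kif5c encode the heavy chains. Kif5a (chromosome 10, 127225696 to 127263348) was at 437, 457 and 444 in vehicle wild types, 383, 326 and 447 in the mutants given vehicle, 335, 470.4, 389, 456 and 400.2 in TAK-418 wild types, and 446, 463 and 348 in TAK-418 mutants. The mean was 414 ± 50.3 (SD, n = 14), and all 4 groups overlap. Kif5c (chromosome 2, 49619298 to 49774778) was at 199, 206 and 195 in vehicle wild types, 175, 193 and 208 in the mutants given vehicle, 216.5, 212, 197, 210.3 and 212 in TAK-418 wild types, and 203, 193 and 192 in TAK-418 mutants. Its spread was small, with a mean of 201 ± 11.01 (SD, n = 14), and the lowest Kif5a value lies above the highest Kif5c value. Kif5b, the form that is made in most tissues, was at 63.5 to 76.6. Together the 3 genes were 43.6% to 52.7% of all kinesin abundance, and Kif5a alone was 53.9% to 64.0% of kinesin-1.

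The next 3 genes were Kif1a, Kifc2 and Kif1b, whose ranges overlap. Kifc2 encodes a neuronal motor of the C-terminal family, whose members walk toward the minus end of microtubules. Kifc2 (chromosome 15, 76659858 to 76668196) was at 133, 114 and 134 in vehicle wild types, 132, 127 and 117 in the mutants given vehicle, 118, 152, 149, 156 and 119 in TAK-418 wild types, and 149, 147 and 113 in TAK-418 mutants. Kif1b (chromosome 4, 149176319 to 149307693) is a kinesin-3 motor for mitochondria and synaptic vesicle precursors. Kif1b was at 114, 125 and 123 in vehicle wild types, 101, 119 and 131 in the mutants given vehicle, 119, 132, 117, 130.2 and 129 in TAK-418 wild types, and 136, 114 and 122 in TAK-418 mutants. No group of either gene stands apart from the others.

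Kif1a (chromosome 1, 93015464 to 93101951), the kinesin-3 motor of synaptic vesicle precursors and dense core vesicles, had the widest spread of the abundant kinesins, with a mean of 134 ± 52.7 (SD, n = 14). Kif1a was at 71.6, 75.0 and 174 in vehicle wild types, 158, 161 and 186 in the mutants given vehicle, 189, 87.2, 184, 186 and 77.3 in TAK-418 wild types, and 83.3, 178 and 63.8 in TAK-418 mutants. The libraries fall into 2 sets with nothing between 87.2 and 158, and 3 of the 4 groups have libraries in both sets. The 3 vehicle mutants are all in the high set. The sets also differ in how the gene was assembled. In the 8 high libraries, 4 to 5 transcripts of at least 47 exons were assembled, and in the 6 low libraries only 1. The highest single transcript was at 51.7 to 88.4 in the high libraries and 60.5 to 83.3 in the low ones, so by that measure the sets overlap. In the authors' deposited tables, Kif1a was at 121 to 134 FPKM in all 4 groups.

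Sums that were higher with more assembled transcripts were also seen in other members, where the libraries that stood apart were high or low. Kif3b (chromosome 2, 153291413 to 153333390) encodes a subunit of kinesin-2, which carries cargo in axons and builds cilia. Kif3b was at 22.8 to 27.1 in the 11 libraries with 1 assembled transcript and at 30.2, 45.7 and 48.2 in the 3 libraries with 2, which are vehicle wild type 3, vehicle mutant 1 and TAK-418 wild type 3. Kif3c, a neuronal kinesin-2 subunit, was at 41.3 to 68.6 in the 12 libraries with 1 transcript, 83.4 in TAK-418 wild type 1 with 2, and 103 in TAK-418 mutant 1 with 3. Kif2a (chromosome 13, 106958996 to 107022126) encodes a kinesin that depolymerises microtubules and limits axon branching. Kif2a was at 34.1 to 38.6 in the 11 libraries with 2 transcripts and at 20.9, 22.8 and 26.2 in the 3 with 1, all of them TAK-418 wild types. For Kif3b, Kif3c and Kif2a, the libraries that stand apart are those with another number of assembled transcripts. Kif21b was at 7.57 in the library with 2 transcripts, but did not rise further with number, at 18.5 to 28.7 with 4 and 22.4 with 7.

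**Figure D2:**
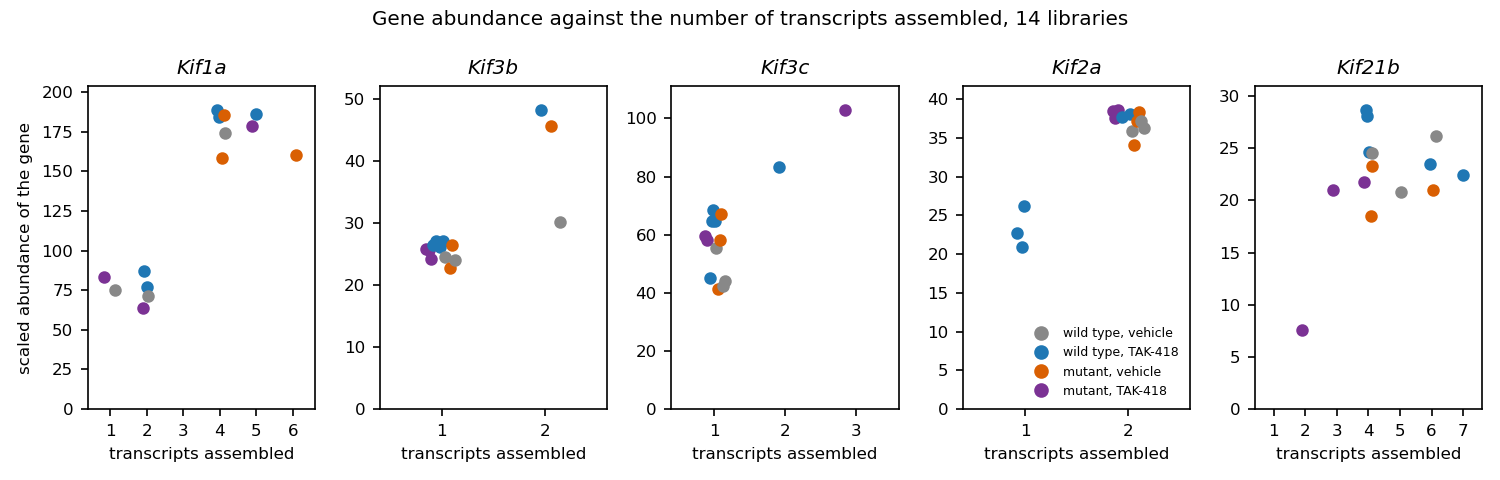
Scaled abundance of 5 kinesin genes (vertical axes, from 0) against the number of transcripts assembled for the gene (horizontal axes), where each point is 1 of 14 libraries and colours mark the groups. Kif1a lies at 63.8 to 87.2 with 1 or 2 transcripts and at 158 to 189 with 4 to 6.

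The remaining transport kinesins were steady or scarce. Kif3a, the kinesin-2 subunit that pairs with Kif3b or Kif3c, was at 52.1 to 62.7. Kif21a, a kinesin-4 motor that restrains microtubule growth, was at 45.8 to 53.7, and Kif1c was at 31.3 to 37.6. Lower down came Kif21b, at 7.57 to 28.7, and Kifc3, at 11.8 to 17.3. Kif17, which carries NMDA receptor vesicles in dendrites, was at 5.68 to 13.2. The endosomal kinesin-3 genes were the lowest of the list, with Kif13b at 5.23 to 7.93, Kif13a at 5.30 to 6.83 and Kif16b at 2.62 to 6.11. Among genes of the transport list, the coefficient of variation was lowest for Kif21a, at 4.73%, and highest for Kif1a, at 39.4%.

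Several transport kinesins are spliced in ways that change the motor by a few amino acids, and the assemblies separate these forms. Of the coding cassette exons of at most 60 nt in the annotation, 14 exons in 8 kinesin genes were each included in at least 3 libraries and skipped in at least 3. The length of 13 of the 14 is a multiple of 3, so that they leave the reading frame intact; the exception is a 13-nt exon of Kif13a. The exons that the results turn on are printed here as they occur in the mature transcript, 5′ to 3′, from the GENCODE M21 transcript sequences (GRCm38). Capitals mark the short exon and lower case marks the 15 bases of the neighbouring exons on each side.
Kif1a, first 27-nt exon: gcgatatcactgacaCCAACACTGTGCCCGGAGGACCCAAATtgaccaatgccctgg
Kif1a, second 27-nt exon: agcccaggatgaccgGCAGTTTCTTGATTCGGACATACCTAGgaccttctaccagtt
Kif1a, 24-nt exon: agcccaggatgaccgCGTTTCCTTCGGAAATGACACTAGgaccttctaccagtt
Kif1b, 42-nt exon: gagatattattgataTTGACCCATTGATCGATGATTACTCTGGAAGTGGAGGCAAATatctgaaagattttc
Kif21a, first 39-nt exon: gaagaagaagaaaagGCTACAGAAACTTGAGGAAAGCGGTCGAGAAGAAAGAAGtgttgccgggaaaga
Kif21a, second 39-nt exon: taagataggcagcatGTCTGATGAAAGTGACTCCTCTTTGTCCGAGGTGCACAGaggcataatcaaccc
Kif21b, 39-nt exon: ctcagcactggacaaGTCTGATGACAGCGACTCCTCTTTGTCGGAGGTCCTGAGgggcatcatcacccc
Kif13a, 39-nt exon: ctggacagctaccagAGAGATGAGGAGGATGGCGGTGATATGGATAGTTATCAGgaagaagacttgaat

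In Kif1a, the first 27-nt exon (chromosome 1, 93065552 to 93065578, minus strand) was included in 61.6% to 68.0% of the full-length abundance in each of the 8 libraries with several full-length transcripts. The other 2 Kif1a exons shown lie between the same neighbours, as their identical lower-case letters show, and none of the 46 assembled Kif1a transcripts held both. In the same 8 libraries the 24-nt exon (93026832 to 93026855) was included in 30.6% to 46.8% and the second 27-nt exon (93034546 to 93034572) in 3.96% to 19.7%. The second 27-nt exon was highest in the vehicle mutants, at 14.1%, 18.0% and 19.7%, against 0%, 0% and 4.93% in vehicle wild types, 5.88%, 5.62%, 3.96%, 9.32% and 0% in TAK-418 wild types, and 0%, 9.02% and 0% in TAK-418 mutants. The vehicle mutants do not overlap any other group. The exact two-sided permutation test gave p = 0.1 against vehicle wild types and p = 0.1 against TAK-418 mutants, the smallest that 3 against 3 allows, and 0.25 after Benjamini-Hochberg adjustment over 5 contrasts, a family whose adjusted p cannot fall below 0.0893. This exon was singled out after its values were seen, and the adjustment does not cover the other short exons from which it was picked. The 5 libraries at 0% all had 1 full-length transcript. Among the 8 libraries with several, the 3 vehicle mutants were at 14.1% to 19.7% and the other 5 at 3.96% to 9.32%.

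The paralogous Kif1b has a 42-nt exon at 149261160 to 149261201, and the 15 bases before it match those before the first 27-nt exon of Kif1a at 11 positions. The Kif1b exon was included in 64.3% to 100% of the abundance. Kif21a and Kif21b, the paralogous kinesin-4 genes, share a 39-nt exon, with the same base at 33 of 39 positions, yet include it to different degrees. In Kif21a (chromosome 15, 90949006 to 90949044, minus strand) it was included in 4.63% to 34.6% of the abundance, and in Kif21b (chromosome 1, 136167162 to 136167200, plus strand) in 79.8% to 100%. The 2 ranges do not overlap in any of the 14 libraries. A 15-nt exon that follows it in Kif21a was included in 0% to 31.1%.

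Both forms were assembled in every library for 3 exons, which could therefore be compared between groups over the libraries. The first 39-nt exon of Kif21a (90976471 to 90976509) was included at 31.0%, 18.1% and 30.6% in vehicle wild types, 38.7%, 46.1% and 35.1% in the mutants given vehicle, 39.5%, 37.3%, 53.6%, 43.8% and 43.7% in TAK-418 wild types, and 23.8%, 35.8% and 44.8% in TAK-418 mutants. The vehicle wild types lie below both the TAK-418 wild types and the vehicle mutants. The exact two-sided permutation test gave p = 0.0357 for TAK-418 against vehicle in wild types (means 43.6% and 26.5%), the smallest that 5 against 3 allows, and p = 0.1 for mutants against wild types under vehicle (means 40.0% and 26.5%), with adjusted values of 0.536 and 0.75 over 15 tests. The 39-nt exon of Kif13a (chromosome 13, 46780626 to 46780664) ranged from 6.78% to 66.6% with no group apart. With these group sizes the smallest adjusted p that the 15 tests could give is 0.0893, so no exon could pass 0.05 and the tests do not show that inclusion was stable.

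**Figure D3:**
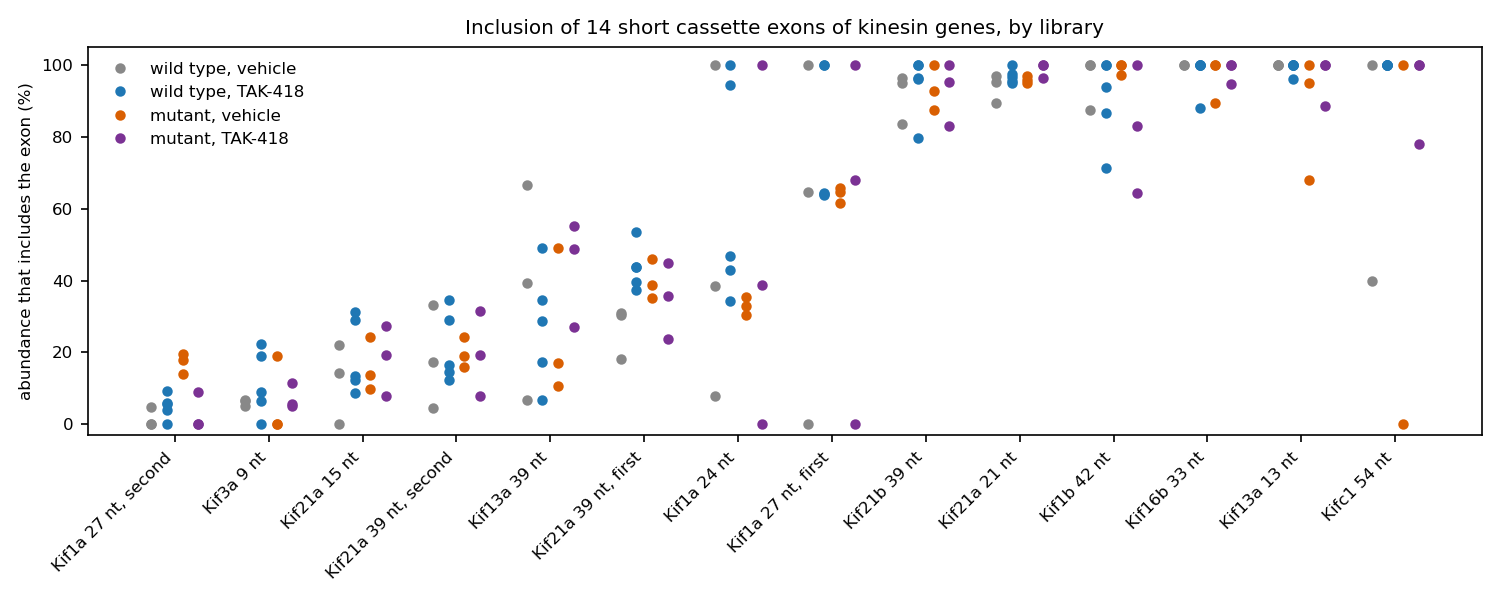
Share of abundance (%) that includes each of 14 short cassette exons, named by gene and length, where each point is 1 library and colours mark the groups. The 39-nt exon of Kif21b lies at 79.8% or more, and the matching second 39-nt exon of Kif21a at 34.6% or less.

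Kif1b also makes motors of 2 lengths from different 3′ ends. The short form, known as a mitochondrial motor, ends at the last exon of a 21-exon transcript (149233734 to 149238483), and the long form, known for synaptic vesicle precursors, ends at the last of 49 exons (149176319 to 149180810). Transcripts that extend past the short end made up 97.4% to 100% of Kif1b abundance in every library. They were counted by their reach beyond the short last exon, and the long last exon was not required. They include the further form described below, so this is not the share of the complete long motor. The short form was assembled in only 3 libraries, TAK-418 mutant 3 and vehicle wild types 2 and 3, at 2.89 to 3.25. The share that extends past the short end was 100% in 11 of the 14 libraries, which leaves little to compare between groups. In 11 libraries a further form of Kif1b began inside an inner annotated exon (149263615 to 149263690), where 0 annotated transcripts begin, and held 27.2% to 54.1% of Kif1b abundance. It was not assembled in vehicle wild type 1, vehicle mutant 1 or TAK-418 wild type 1.

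The mitotic kinesins were low in every library, and many were assembled only in part. For the 12 members with a value, the median share of annotated introns that was assembled ranged from 6.90% for Kif14 to 95.2% for Kif11, against 85.7% to 100% for the 17 transport members. Values below are given in the order vehicle wild types, vehicle mutants, TAK-418 wild types and TAK-418 mutants. Kif11, the motor that holds the spindle poles apart, was at 1.04, 1.50 and 4.16, then 1.10, 1.04 and 3.44, then 0.993, 1.15, 2.32, 1.38 and 1.86, and then 2.98, 1.85 and 1.64. Kif15, which can share that task, was at 1.53, 3.26 and 1.17, then 2.00, 1.27 and 1.44, then 3.54, 3.07, 1.53, 4.64 and 1.55, and then 3.78, 1.96 and 1.03. Both genes varied widely between libraries of 1 group, and their groups overlap. The authors' deposited tables hold Kif15 only as a locus joined to 3 other genes, at 11.5 to 13.2 FPKM, so that value does not describe Kif15 alone.

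Summed over assembled transcripts, the chromosome motors had means over the 14 libraries of 2.02 for Kif4 and 2.00 for Kif18a. The means were 0.840 for Kif2c, 0.704 for Kif22 and 0.533 for Kif18b. The authors' deposited tables do not give this order. There Kif4 was at 0.286 to 0.418 FPKM, Kif18a at 0.421 to 0.666 and Kif2c at 0.414 to 0.488, all below Kif22. Kif4, which compacts chromosome arms, was at 2.44, 2.20 and 0.713, then 2.54, 2.23 and 1.82, then 0.849, 2.00, 3.14, 1.29 and 3.02, and then 1.42, 2.05 and 2.61. Kif18a, which dampens chromosome movement at the spindle equator, was at 2.84, 2.00 and 2.20, then 2.72, 2.19 and 2.12, then 0.639, 2.39, 0.962, 1.48 and 2.39, and then 2.41, 1.93 and 1.67. Kif22, a chromatin-binding motor, was assembled in 7 libraries, at 0, 1.03 and 1.14, then 2.95, 1.34 and 0, then 0, 1.35, 0.856, 0 and 0, and then 0, 1.19 and 0. The authors' deposited tables give Kif22 3.68 to 4.56 FPKM in all 4 groups, so a value of 0 here does not show that it was absent. Kif2c, which removes faulty attachments at centromeres, was at 1.06, 0.315 and 0.885, then 0, 1.53 and 1.90, then 0.511, 0.909, 0.834, 0.808 and 0.797, and then 0.364, 0.340 and 1.51. Kif18b, which shortens microtubules outside the spindle, was at 0.508, 0.986 and 0.331, then 0.525, 0.210 and 0.462, then 0.249, 0.982, 0, 1.18 and 0.779, and then 0.577, 0.678 and 0. All of these genes overlap between the groups.

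The motors of the late stages of division were also low, with means of 2.14 for Kif20a, 1.69 for Kif20b and 1.72 for Kif23. The authors' deposited tables give Kif20a 0.302 to 0.378 FPKM, Kif20b 0.367 to 0.490 and Kif23 0.476 to 0.784, in another order. Kif20a, which brings regulators to the cleavage site, was at 2.42, 2.30 and 1.92, then 3.15, 2.78 and 2.07, then 1.18, 1.32, 1.72, 1.89 and 2.26, and then 1.87, 3.27 and 1.76. Kif20b was at 2.33, 1.19 and 1.73, then 1.75, 2.22 and 2.13, then 1.25, 2.25, 0.625, 1.70 and 2.50, and then 0.759, 0.904 and 2.33. Kif23, part of the complex that bundles microtubules between daughter cells, was at 1.03, 2.02 and 2.61, then 2.33, 1.91 and 1.94, then 0.410, 2.16, 1.21, 1.74 and 1.06, and then 1.72, 2.54 and 1.35. These 3 genes have no group apart. Kif14, which acts in cytokinesis, was at 0.753, 0 and 0.938, then 0, 0 and 0.431, then 0.550, 0.145, 0, 0.466 and 0.917, and then 0.327, 1.29 and 0.333. Kifc1, the spindle motor that moves toward the minus end, was at 2.05, 1.28 and 2.60, then 3.00, 2.03 and 2.65, then 1.12, 0.918, 2.17, 1.21 and 1.27, and then 2.46, 1.30 and 2.104. The summed mitotic list was lowest, at 11.3, in TAK-418 wild type 1, the deepest library, and the part of depth in this was not tested. The 12 markers of dividing cells summed to 18.5 to 28.2, and 11 of them had a value in every library; the exception was Bub1, which was listed at 0 in at least 1.

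The cilium kinesins were as low as the mitotic ones. Kif7, which controls Hedgehog signalling at the tip of the primary cilium, was at 3.56, 2.36 and 2.36, then 3.88, 3.70 and 3.87, then 1.36, 1.24, 4.43, 3.33 and 2.47, and then 2.34, 2.55 and 2.14, in the same order of groups. The vehicle mutants lie above both the vehicle wild types and the TAK-418 mutants. Kif19a, which shortens motile cilia, was at 2.51, 2.55 and 2.31, then 2.60, 2.37 and 2.93, then 1.88, 2.77, 2.48, 2.71 and 2.50, and then 2.43, 2.70 and 2.54. Kif9, a motor of motile cilia, was at 2.95, 1.89 and 2.92, then 4.02, 1.75 and 2.53, then 2.30, 2.14, 1.97, 1.84 and 2.26, and then 2.03, 2.61 and 3.48. Kif19a and Kif9 overlap between all groups. Kif27, a relative of Kif7, was at 2.37, 2.03 and 2.86, then 2.22, 3.08 and 1.93, then 0.814, 2.60, 3.60, 1.67 and 2.105, and then 3.23, 1.47 and 3.19. Kif6, found in ependymal cilia, was at 2.99, 0.999 and 2.82, then 3.45, 1.69 and 3.27, then 1.00, 2.35, 3.05, 1.04 and 0.886, and then 2.62, 1.42 and 0.821. Kif24, which restrains the formation of cilia, was at 0, 1.24 and 0.837, then 1.02, 0.176 and 0.251, then 0.489, 0.603, 0, 0.286 and 0.381, and then 0.351, 0.363 and 0.291. None of these 3 has a group apart.

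The cilium sum and the ependymal markers were extreme in the same 2 libraries, but not in the same order in others. The cilium sum was highest, at 17.2, in vehicle mutant 1, where the 10 ependymal markers also had their highest sum, 57.0, and the choroid plexus markers were at 5875. It was lowest, at 7.84, in TAK-418 wild type 1, where the ependymal markers had their lowest sum, 27.8. Vehicle wild type 3, with the second highest ependymal sum, 44.3, had a cilium sum of 14.1, and TAK-418 mutant 2, with 42.9, had 11.1. TAK-418 wild type 3 had the second highest cilium sum, 15.5, with an ependymal sum of 38.002. Over all libraries the ependymal sum was 27.8 to 57.0, with all 10 markers present in every library. The part of these cells in the cilium values was not tested.

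**Figure D4:**
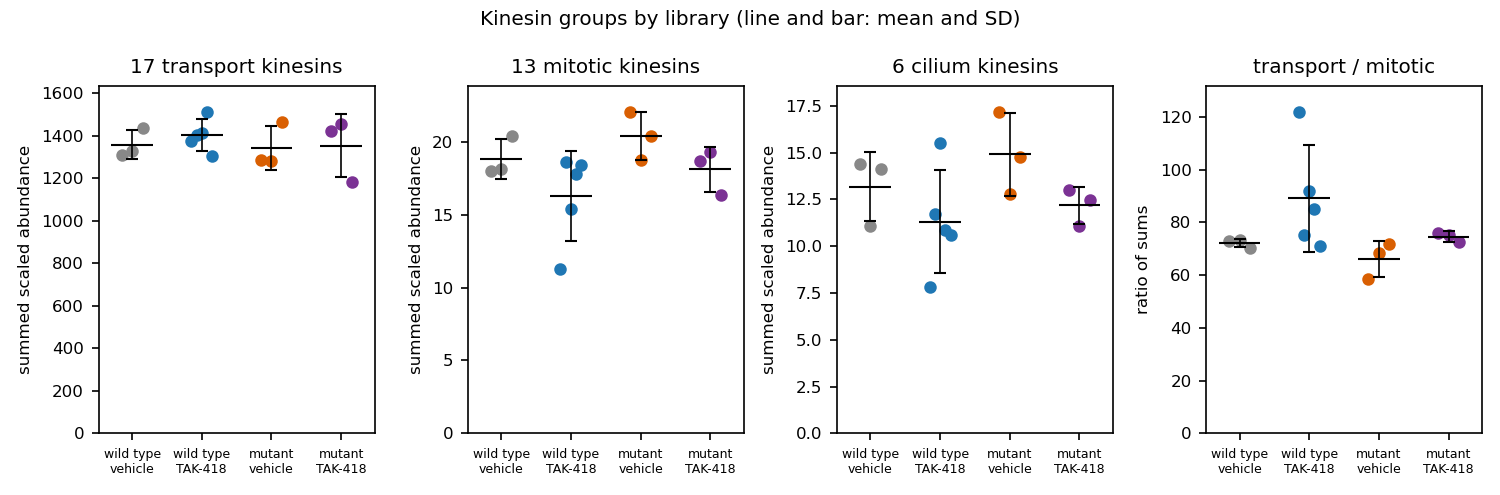
Summed scaled abundance of the transport, mitotic and cilium kinesins and the ratio of transport to mitotic (vertical axes, from 0) in the 4 groups, where points are libraries and lines with bars are the mean and SD. The mitotic sum is lowest, at 11.3, and the ratio highest, at 122, in 1 TAK-418 wild type.

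No kinesin gene passed the test in any comparison. Differences were fitted with limma on log2(scaled abundance + 0.878) over 16569 genes, and p-values were adjusted over all of them. The question of the design is whether the mutation changes the hippocampus and whether TAK-418 changes it back. With an adjusted p under 0.05 as the call, 0 of 38 kinesins were called for mutants against wild types under vehicle (0% of all genes), 0 for TAK-418 against vehicle in mutants (0.00604%), 0 for TAK-418 against vehicle in wild types (0.00604%), 0 for mutants against wild types under TAK-418 (0.0121%), 0 for TAK-418 mutants against vehicle wild types (0.0241%), and 0 for the interaction (0.00604%). At an unadjusted p under 0.05, 8 of the 228 pairs of gene and contrast passed, or 3.51%, against 5.50% over all genes. The smallest adjusted p of a kinesin was 0.437. These p-values measure the spread between the libraries as labelled.

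The width of the intervals differed between the lists. For mutants against wild types under vehicle, the median half-width of the 95% confidence interval was 0.29 on the log2 scale for the 17 transport kinesins and 0.73 for the 12 mitotic kinesins tested. These intervals are not adjusted for the number of genes tested, whereas a call needed an adjusted p under 0.05. A change of the size of those half-widths, or a larger one, could therefore be missed. In that contrast 4 transport kinesins had a higher estimate in mutants and 13 a lower one, with a median log2 difference of -0.06. Without the 2 libraries with high choroid plexus markers, 1 in each group, the transport list was 8 higher and 9 lower, with a median of -0.01. Of the mitotic kinesins 8 were higher and 4 lower, with a median of 0.15, and 7 were higher and 5 lower without those libraries, with a median of 0.07. Of the 6 cilium kinesins 4 were higher and 2 lower, with a median of 0.06, and again 4 and 2 without them, with a median of 0.08. Over all genes 50.3% were higher. None of the 38 had an unadjusted p under 0.05, against 5.46% of all genes; for TAK-418 in mutants and for the interaction the counts were again 0, against 4.39% and 4.42%. Without the 2 libraries with high choroid plexus markers the counts were 3 under vehicle, against 5.42% of all genes, 2 for TAK-418 in mutants, against 4.29%, and 1 for the interaction, against 5.42%. The 3 genes under vehicle were Kif1a, Kifc3, at 0.37, and Kif2c, at 0.77, with a limma adjusted p of 0.915 each. The 2 libraries left out are vehicle mutant 1, where Kif2c was at 0, and vehicle wild type 3, which had the highest Kif1a of the vehicle wild types. Kifc3 and Kif2c were also the 2 for TAK-418 in mutants, at -0.30 and -0.75 with a limma adjusted p of 1, and Kif1a was the 1 for the interaction. All 3 contrasts use the vehicle mutants. With abundance multiplied by length the count was 0 under vehicle, against 5.49% of all genes. For TAK-418 in mutants it was 3, against 4.36%, and for the interaction 2, against 4.16%. With the highest transcript only the count was 2 under vehicle, against 5.335% of all genes. For TAK-418 in mutants it was then 0, against 4.67%, and for the interaction 2, against 4.575%.

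**Figure D5:**
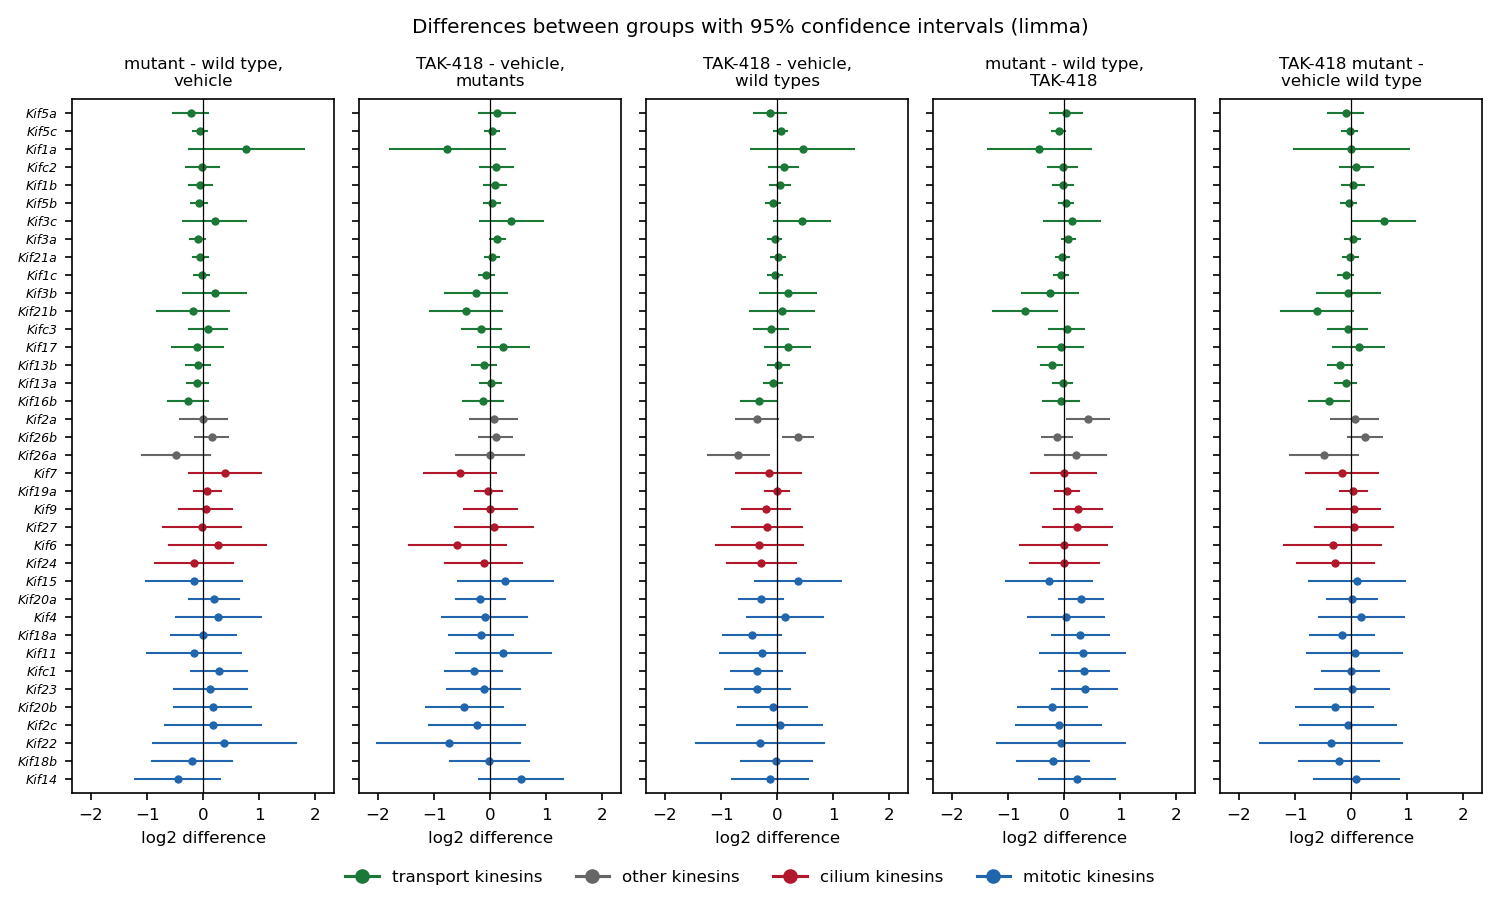
Log2 differences (points) with 95% confidence intervals (lines) of 38 kinesin genes in the 5 pairwise contrasts, coloured by list. The intervals of the mitotic kinesins are wider than those of most transport kinesins, with median half-widths of 0.73 and 0.29 under vehicle.

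Under vehicle, the widest difference among abundant members was that of Kif1a. It was higher in mutants by 0.77 on the log2 scale (SE 0.47, 95% interval -0.25 to 1.80, limma adjusted p = 0.936), in a gene whose sums differ with the number of assembled transcripts. With only the highest transcript of each gene, the difference turned to -0.23, and without the 2 libraries with high choroid plexus markers it was 1.23 (limma adjusted p = 0.915, with an unadjusted p under the threshold). Each vehicle wild type that then remains had 1 full-length Kif1a transcript, and each remaining vehicle mutant had 4 or 5. For TAK-418 against vehicle in mutants the Kif1a estimate was -0.77 (limma adjusted p = 1), and it turned to 0.25 with the highest transcript only. The interaction for Kif1a was -1.22 (limma adjusted p = 0.977) and turned to 0.09 in the same way. Kif7 was the only kinesin whose groups did not overlap under vehicle, against 8.9% of all genes, and again the only one for TAK-418 in mutants, against 8.19%. Kif7 was 0.38 higher in mutants under vehicle (limma adjusted p = 0.999) and 0.55 lower in TAK-418 mutants than in vehicle mutants (log2 difference -0.55, limma adjusted p = 1). With the highest transcript only, the Kif7 difference in mutants was 0.0029. The authors' deposited tables give Kif7 0.818 to 0.824 FPKM in vehicle wild types and 0.904 to 0.906 in vehicle mutants. They give 0.996 to 0.999 in TAK-418 mutants, so there Kif7 was not lower with TAK-418. Kif7 had 4 transcripts in each vehicle mutant and 2 in each TAK-418 mutant. Kif1a and Kif7 were named after their values were seen.

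In wild types, TAK-418 went with estimates that were lower for 24 kinesins and higher for 14. All 6 cilium kinesins and 9 of the 12 mitotic kinesins had lower estimates, with medians of -0.19 and -0.20, while the transport kinesins were split, 10 higher and 7 lower, with a median of 0.02. Over all genes 48.9% were higher. In the same contrast all 12 choroid plexus markers had lower estimates, with a median of -1.07, as had 9 of the 12 markers of dividing cells, with a median of -0.23, and 6 of the 10 ependymal markers. The part of these cells in the kinesin estimates was not tested. Without the 2 libraries with high choroid plexus markers the cilium list was still 0 higher and 6 lower and the mitotic list 4 higher and 8 lower, with the transport list 12 higher and 5 lower. Without the deepest library, TAK-418 wild type 1, the cilium list was 2 higher and 4 lower and the mitotic list 4 higher and 8 lower. At an unadjusted p under 0.05, 3 kinesins passed, or 3 of 38 against 8.44% of all genes. Kif26b (chromosome 1, 178529125 to 178939200), an atypical kinesin that signals in cell polarity and adhesion, was at 5.32, 4.59 and 5.53 in vehicle wild types and at 6.66, 6.69, 6.56, 7.89 and 6.68 in TAK-418 wild types. The 2 groups do not overlap, which was so for 6.33% of all genes, and the difference was 0.37 (SE 0.12, limma adjusted p = 0.437). Without vehicle wild type 2 the Kif26b difference was 0.30 (limma adjusted p = 0.655) and no longer passed the unadjusted threshold. In the mutants Kif26b was at 5.25, 5.33 and 6.93 with vehicle and 7.05, 7.08 and 4.88 with TAK-418, which overlap. For Kif26b the authors' deposited tables give 3.12 to 3.14 FPKM in vehicle wild types and 4.02 to 4.05 in TAK-418 wild types.

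For the other 2 genes the estimates changed when 1 library was left out or when transcripts were summed in another way. Kif26a (chromosome 12, 112146208 to 112181747), the paralogue of Kif26b, was at 3.61, 3.07 and 4.39 in vehicle wild types and 1.54, 2.03, 3.08, 1.75 and 1.52 in TAK-418 wild types. The Kif26a difference was -0.69 (SE 0.25, limma adjusted p = 0.469), and it turned to 0.28 when abundance was multiplied by transcript length. All 3 vehicle wild types had 3 Kif26a transcripts and all 5 TAK-418 wild types had 2. Over all groups, Kif26a was at 1.33 to 3.08 with 2 transcripts and at 1.47 to 4.39 with 3, which overlap. The part of transcript number in this difference was not tested. Kif16b, which moves early endosomes, was at 3.09, 6.11 and 3.59 in vehicle wild types, 3.49, 3.01 and 3.29 in the mutants given vehicle, 3.24, 3.14, 3.01, 3.09 and 2.96 in TAK-418 wild types and 3.10, 3.07 and 2.62 in TAK-418 mutants. Only vehicle wild type 2 is high. The Kif16b difference was -0.33 in TAK-418 wild types (SE 0.15, limma adjusted p = 0.578) and -0.39 in TAK-418 mutants against vehicle wild types (SE 0.16, limma adjusted p = 0.902). Without vehicle wild type 2 these became -0.09 (limma adjusted p = 0.845) and -0.15 (limma adjusted p = 0.977), and neither passed the unadjusted threshold. For Kif16b the authors' deposited tables give 2.76 to 2.78 FPKM in vehicle wild types. They give 2.38 to 2.40 in TAK-418 wild types and 2.59 to 2.60 in TAK-418 mutants.

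Under TAK-418, 3 kinesins passed the unadjusted threshold between mutants and wild types, or 3 of 38 against 4.92% of all genes. Kif21b (chromosome 1, 136131389 to 136177998), a neuronal kinesin-4 that shapes dendrites and carries receptors, was at 21.7, 20.999 and 7.57 in TAK-418 mutants and 28.7, 28.1, 23.5, 22.4 and 24.6 in TAK-418 wild types. The groups do not overlap, which held for 4.56% of all genes and for 1 other kinesin, Kif3b. The Kif21b difference was -0.70 (SE 0.26, limma adjusted p = 0.926). Without TAK-418 mutant 3, where only 2 Kif21b transcripts were assembled, it was -0.24 (limma adjusted p = 1.00) and did not pass the unadjusted threshold. Under vehicle, Kif21b was at 20.97, 18.5 and 23.3 in mutants and 20.8, 24.6 and 26.2 in wild types, which overlap.

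Kif21b also had the smallest p of any kinesin in 3 of the 4 deposited tables. In the authors' deposited tables it was at 8.12 to 8.13 FPKM in vehicle mutants, 8.40 to 8.43 in TAK-418 mutants, 9.44 to 9.51 in vehicle wild types and 9.88 to 9.96 in TAK-418 wild types. The authors' deposited table of TAK-418 mutants against TAK-418 wild types gives Kif21b a log2 fold change of -0.25 with p = 0.003 and q = 0.725. The authors' deposited table for vehicle mutants and TAK-418 wild types gives -0.28 with p = 0.0015 and q = 0.167, and the authors' deposited table under vehicle gives -0.22 with p = 0.0794 and q = 1.00. The tables share groups and pool the libraries of each, so they are not separate evidence and show no spread between mice. The fourth of the authors' deposited tables, TAK-418 mutants against vehicle wild types, has its smallest kinesin p at Kif26b, with a log2 fold change of 0.24, p = 0.0418 and q = 1.00.

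By the q-values in the authors' deposited tables, 0 kinesin loci were called at 0.05, where 0.218%, 0.611%, 0.324% and 0.224% of all tested loci were called in the tables of TAK-418 mutants against TAK-418 wild types, vehicle mutants against TAK-418 wild types, TAK-418 mutants against vehicle wild types, and vehicle mutants against vehicle wild types. The authors tested 37, 37, 37 and 36 of the 42 kinesin loci. At an unadjusted p under 0.05 the counts of kinesin loci were 1, 2, 1 and 0, against 4.1%, 6.48%, 4.49% and 4.32% of all tested loci.

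The 2 further genes under TAK-418 were Kif13b and Kif2a. Kif13b, a kinesin-3 that carries membrane proteins, was at 6.86, 5.23 and 6.33 in TAK-418 mutants and 7.79, 7.13, 6.67, 6.95 and 7.93 in TAK-418 wild types, which overlap, and differed by -0.22 (SE 0.09, limma adjusted p = 0.926). Without TAK-418 mutant 2 the Kif13b difference was -0.13 (limma adjusted p = 0.984). Kif2a was at 38.4, 37.6 and 38.6 in TAK-418 mutants and 22.8, 37.7, 20.9, 26.2 and 38.2 in TAK-418 wild types, and differed by 0.42 (SE 0.17, limma adjusted p = 0.926). Among the TAK-418 wild types, the 2 libraries with 2 assembled Kif2a transcripts, at 37.7 and 38.2, lie within the range of the mutants. With abundance multiplied by transcript length the Kif2a difference was 0.04 (limma adjusted p = 0.911). For Kif2a the authors' deposited tables give 28.4 to 28.5 FPKM in TAK-418 mutants and 27.9 to 28.1 in TAK-418 wild types.

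TAK-418 mutants were last compared with vehicle wild types, which asks how far treated mutants are from untreated controls. Here 17 kinesins had a higher estimate and 21 a lower one, with a median log2 difference of -0.02 (19 and 19 without the 2 libraries with high choroid plexus markers), and 2 passed the unadjusted threshold, against 5.38% of all genes. One was Kif16b, given above. The other was Kif3c (chromosome 12, 3365132 to 3406494), at 103, 59.6 and 58.3 in TAK-418 mutants and 55.5, 42.3 and 44.2 in vehicle wild types. These groups do not overlap, as for Kif2a and 9.52% of all genes. The Kif3c difference was 0.59 (SE 0.26, limma adjusted p = 0.915). Without TAK-418 mutant 1, where 3 Kif3c transcripts were assembled, it was 0.32 (limma adjusted p = 0.993), and with abundance multiplied by length it was -0.0033. For Kif3c the authors' deposited tables give 47.4 to 47.6 FPKM in TAK-418 mutants and 47.4 to 47.7 in vehicle wild types.

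The partners of the motors were measured alongside. Of 15 genes for light chains, adaptors and cargo linkers, 0 were called by limma at an adjusted p under 0.05 in any contrast. At an unadjusted p under 0.05, 4 of the 15 were higher with TAK-418 in wild types, against 8.44% of all genes in either direction. The smallest p among them belonged to Trak1, the adaptor that couples kinesin-1 to mitochondria, with a log2 difference of 0.24 (SE 0.07, limma adjusted p = 0.360), and to Mapk8ip3, which links kinesin-1 to vesicles, with 0.19 (SE 0.06, limma adjusted p = 0.420). Under TAK-418, 3 of the 15 partners passed the unadjusted threshold between mutants and wild types, against 4.92% of all genes, and each was lower in mutants, Mapk8ip1 at -0.11 (limma adjusted p = 0.926) and Mapk8ip3 at -0.16 (limma adjusted p = 0.926) having the smallest p. The other was Trak1, at -0.17 (limma adjusted p = 0.926). For TAK-418 in mutants Klc4, a kinesin-1 light chain, was the only one to pass, at -0.21 (limma adjusted p = 1.00), against 4.39% of all genes. For the interaction it was Mapk8ip3, at -0.20 (limma adjusted p = 0.977), against 4.42% of all genes. Both of the first 2 contrasts use the TAK-418 wild types. Of 9 dynein and dynactin genes, which serve transport in the other direction, Dctn2 alone passed the unadjusted threshold, in 2 contrasts. Dctn2 was higher in TAK-418 mutants by 0.36 than in TAK-418 wild types (limma adjusted p = 0.926), where 4.92% of all genes passed. It was higher by 0.48 than in vehicle wild types (limma adjusted p = 0.813), where 5.38% passed.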

How the data were processed

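Per the file headers, the authors assembled the transcripts of each library with CLASS 2.1.7; the submitters' processing notes name TopHat2 2.1.0 and the mm10 genome. Each deposited transcript carries an abundance whose unit is not named: among single-exon transcripts, abundance times length was a whole number of steps of 1 size within a library in 93.2% to 99.6% of cases, as for FPKM. Per the file headers, the deposited comparison tables hold 1 FPKM value per group, the authors' log2 fold change, a p-value and a q-value per locus. Strandedness is not given in the sources used here, so overlapping genes are uncertain.

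Transcripts were assigned to GENCODE M21 (GRCm38) genes by shared introns, or for single-exon transcripts by at least 50% overlap, and summed. Scaling between libraries used median ratios over 13273 genes with a value in all 14. Of 18722 genes with a value, the 16569 with one in at least 3 libraries were fitted with limma 3.58.1 (trend, 4 group means) on log2(value + 0.878), the 10th percentile of values above 0, with Benjamini-Hochberg adjustment. On simulated data with 16569 genes for mutants against wild types under vehicle, 82% of log2 changes of 1 and 88% of changes of 2 were recovered, with 13 wrong calls. The simulated data had normal noise and 200 changed genes drawn from all genes. They did not copy the jumps with transcript number, so the recovery does not give the power for the kinesins. Values were named for the 5 most abundant members, all mitotic and cilium members, and up to 4 per contrast with an unadjusted p under 0.05. Members and lists were chosen with earlier results of these data known. The exon, transcript-number and inner-start descriptions were added after seeing the data.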

Additional observations from a re-analysis of the deposited data

Results flagged for a closer look

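In the group of 5 TAK-418 wild types, 4 of the 48 measures screened had a library farther from its nearest neighbour than Dixon's 95% limit for 5 values (0.71 of the range); chance alone gives about 5% of such screens. Kif3b was at 48.2 in TAK-418 wild type 3, the next highest being 27.1, and this library had 2 assembled Kif3b transcripts where the other 4 had 1. Kif26b was at 7.89 in TAK-418 wild type 4, the next highest being 6.69. Kifc1 was at 2.17 in TAK-418 wild type 3, the next highest being 1.27. Kif2c was at 0.511 in TAK-418 wild type 1, the deepest library, the next lowest being 0.797. The part of depth and of transcript number in these values was not tested. Groups of 3 were not screened.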

How the results depend on the processing

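The count of kinesins called was 0 in all 6 contrasts under each alternative that was run (the interaction needs all 4 groups and was not run on pairs of groups). With the highest transcript only, Kif1a turned to -0.23 for mutants under vehicle, 0.25 for TAK-418 in mutants and 0.0904 for the interaction, and Kif7 to 0.0029 for TAK-418 in mutants. With abundance multiplied by length, Kif7 turned to 0.15 in that contrast, Kif26a to 0.28 for TAK-418 in wild types, and Kif3c to -0.0033 for TAK-418 mutants against vehicle wild types. The cause was not tested. In the authors' deposited tables, an unadjusted p under 0.05 in place of q gave 1, 2, 1 and 0 kinesin loci. The median sums for transport, mitotic and cilium kinesins were 1139, 9.26 and 8.06 with the highest transcript only and 8442, 22.0 and 26.0 with abundance multiplied by length, and the ratio of transport to mitotic was 125 and 387. No paired analysis was possible because the title numbers are all different and replicate numbers only name libraries. Median half-widths of the 95% intervals under vehicle were 0.73 for mitotic, 0.67 for cilium and 0.29 for transport members; the part of depth in this was not tested.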
